A study of Caenorhabditis elegans with 6 samples.

Results

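The chromosome IV block is the set of genes that start within an interval of 660 kb on chromosome IV (build WBcel235), leaving out *pmk-1*, *pmk-2*, *pmk-3*, *isp-1* and the genes named clec-, his-, col-, nhr-, msp- and fbxa-. Of 20362 protein-coding genes in the count table, 165 start in this interval. After 15 were left out, 150 members remained, from *F42G8.7* (chrIV, start 8123105) to *C33D9.6* (end 8778145), 84 on the plus strand and 66 on the minus strand. The interval was chosen by the measured values of these 6 libraries, since it was drawn around genes that were higher in *grh-1* OEx, so all fold changes of its members below describe them and test nothing. The choice used position, so where the positive members lie along the interval is bound up with it. Level is not free of it either, since finding a gene higher depends on its counts. Strand was not used. The account is arranged by order, strand and level.

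RNA was taken from whole nematodes of *grh-1* OEx line 1 (3 libraries) and of the wild type N2, called WT (3 libraries). *grh-1* OEx nematodes carry *grh-1* fused to *gfp* behind the promoter of the heat shock gene *hsp-16.2*, integrated after microparticle bombardment of an *unc-119*-deficient strain and backcrossed to N2, and they were grown without heat shock. Both groups were grown at the same temperature on OP50 bacteria and collected 48 h after development. The overexpressing group is 1 transgenic line, so what the transgene does and what else that line carries cannot be told apart, and the place of integration was not given in the sources used here. Counts per library summed to between 14409044 and 25535026. Since RNA came from whole animals, fewer cells of a type and less RNA per cell cannot be told apart. The study's methods call the 3 samples of a group independent biological samples, without saying in the sources used here whether each was a separate culture.

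*grh-1* itself, on chromosome I, was measured at 7.65, 9.69 and 6.52 CPM in the *grh-1* OEx libraries, against 4.997, 5.63 and 6.17 CPM in the WT libraries, where CPM is the count per 1000000 counts after TMM scaling. All *grh-1* OEx libraries lay above all WT libraries, with a log2 fold change of 0.51 ± 0.21 (standard error) that missed the threshold when adjusted over every tested gene (edgeR quasi-likelihood test, adjusted p = 0.71). WT replicate 3 stood apart from the rest. The summed level of 66 sperm genes was 190.3 to 255.1 CPM in the *grh-1* OEx libraries, against 163.2 and 228.7 CPM in WT replicates 1 and 2 and 967.4 CPM in WT replicate 3. The 5 intestinal markers, which include yolk genes, summed to between 17140.4 and 24894.4 CPM in the *grh-1* OEx libraries, against 20555.9 and 25835.3 CPM in WT replicates 1 and 2 and 48096.5 CPM in WT replicate 3. Oocyte markers ran the same way, at 6796 to 7484 CPM in *grh-1* OEx and 6574 to 11081 CPM in WT, the highest being WT replicate 3. The 4 defining markers each of muscle, neurons and epidermis were above 0 in every library.

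Genes along a nematode chromosome are packed closely on both strands, and some neighbouring genes on one strand share a promoter as an operon while most have their own. The block holds genes of unrelated function. Among them are those for the yolk protein VIT-6, for a subunit of the Polycomb complex (*mes-6*) and for tubulin folding (*tbce-1*). Others are for heparan sulfate modification (*hst-1*), for making UDP-xylose (*sqv-1*) and for receptors of the serpentine families (*str-176*, *sru-7*, *npr-22*). Grainyhead proteins, of which GRH-1 is the one in the nematode, are transcription factors known for their part in the epidermis, and they bind short DNA motifs. The study listed predicted GRH-1 sites beside genes it had found higher, so the presence of a site in that list follows from the choice of genes and is not compared here with other genes. Of the members, 34 had at least 1 listed site. The 51 listings came down to 39 different positions, of which 13 were listed beside 2 or more genes and 25 lay within the span of an annotated gene. One position, chrIV:8288801-8288808, was listed beside 4 neighbouring genes, *K07H8.9*, *K07H8.10*, *daf-31* and *K07H8.2*.

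The sites listed for the members that passed the test are shown as the only sequences of the block in the sources used here, with the bases that every listed site shares in capitals. Positions are in WBcel235, and each sequence is written 5′ to 3′ on the strand given.
faah-1, plus strand, chrIV:8158404-8158411: aCtGGTTt
T09A12.5, plus strand, chrIV:8225624-8225631: tCtGGTTt
K07H8.9, minus strand, chrIV:8286886-8286893: aCcGGTTt
K07H8.9, plus strand, chrIV:8288801-8288808: aCtGGTTt
F35H10.6, plus strand, chrIV:8299783-8299790: tCcGGTTt
F35H10.10, plus strand, chrIV:8312929-8312936: tCtGGTTt
F17E9.4, plus strand, chrIV:8347239-8347246: aCaGGTTt
F17E9.4, plus strand, chrIV:8348653-8348660: tCtGGTTt
str-176, plus strand, chrIV:8463749-8463756: tCtGGTTt
hst-1, minus strand, chrIV:8690950-8690957: tCcGGTTt
Among the 39 positions, tCtGGTTt occurred at 14, aCtGGTTt at 10, aCaGGTTt at 6, tCcGGTTt at 4, aCtGGTTc at 3 and aCcGGTTt at 2. Of the 13 members that passed the test, 8 had a listed site. *sph-1*, *islo-1*, *glrx-22*, *T01B11.2* and *C49C8.1* had none in that list.

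Of the 150 members, 114 had enough counts to be tested, 36 did not and 6 of these had no read in any library. Among the 114, 81 had a positive log2 fold change (47.6% of all tested genes did), 13 passed an adjusted p of 0.05 as higher in *grh-1* OEx and none passed as lower (edgeR; at an unadjusted p of 0.05 there were 54 higher and 4 lower, beside 2.18% and 4.44% of all tested genes, and DESeq2 called 1 lower). Over all 13736 tested genes 0.146% passed as higher and 0.298% as lower, shares from which nothing is read here because the interval was drawn from this contrast. *pmk-1* and *pmk-3* also passed, so that 15 of the 20 genes called higher in the whole table start in the interval. The median log2 fold change of the tested members was 0.45, with quartiles at -0.04 and 0.77, beside a median of -0.01 over all tested genes. The count of 13 depended on single libraries. It was 33 with DESeq2 (0.371% of all genes passed as higher and 0.716% as lower with that tool), 23 without WT replicate 3, 21 without WT replicate 1, 2 without WT replicate 2 and 4 when *grh-1* OEx replicate 3 was left out, while leaving out either of the other *grh-1* OEx libraries gave 0. The shares of all tested genes that passed with a library left out are not given here. These counts are therefore not read as particular to the members. All 3 *grh-1* OEx libraries lay above all 3 WT libraries in 53 tested members and below them in 2, beside 3.39% and 6.14% of all tested genes.

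Ordered along the chromosome, the members fell into 4 stretches. Their bounds were set after the values had been seen, so the stretches describe the order and carry no test. The left stretch ran for 340.7 kb from *F42G8.7* to *str-176* (chrIV:8123105-8463816) and held 76 members. The middle stretch, from *oat-1* to *C49C8.8*, held 43 members, the right stretch, from *C49C8.1* to *F21D5.1*, 16 members, and the end stretch, from *otub-3* to *C33D9.6*, 15 members. In the left stretch 54 of 60 tested members were positive, and the middle value of the log2 fold change was 0.66 (quartiles 0.46 and 0.87), which is a median ratio of 1.58 between the mean CPM. In the middle stretch 8 of 29 tested members were positive, with a median of -0.09. The right stretch had 10 of 11 tested members positive and a median of 0.76, and the end stretch 9 of 14 and a median of 0.04. The 13 calls fell 11 in the left stretch and 2 in the right stretch, and *grh-1* OEx lay above WT without overlap in 41 members of the left stretch, 1 of the middle, 9 of the right and 2 of the end.

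**Figure D1:**
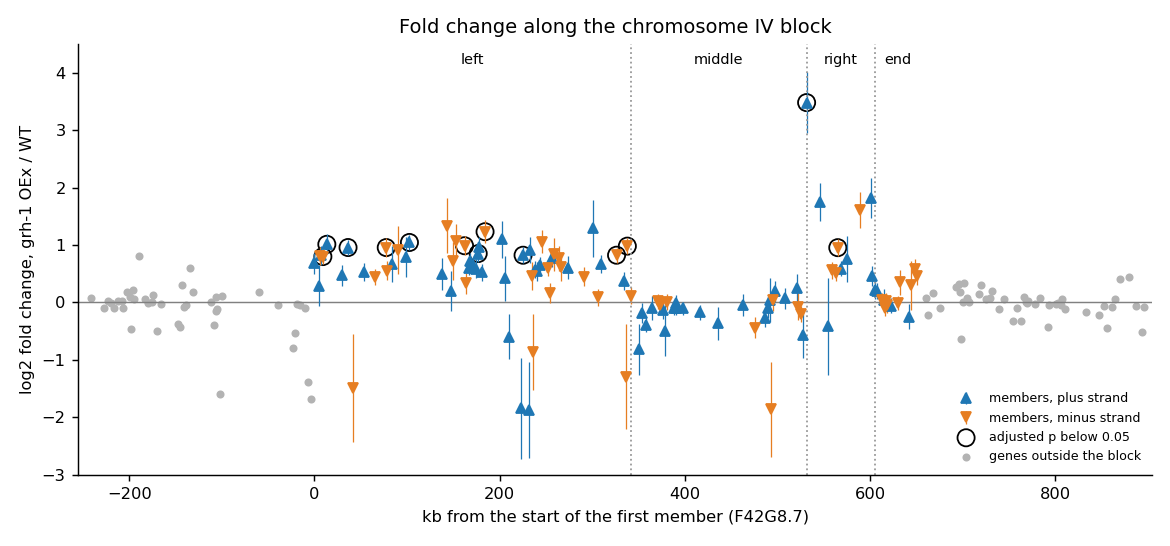
Log2 fold change of *grh-1* OEx over WT against distance in kb from the start of the first member, with upward triangles for members on the plus strand, downward triangles for members on the minus strand, bars for the standard error, rings for adjusted p below 0.05, grey points for tested genes outside the block and dotted lines at the start of the middle, right and end stretches. Most points of both strands lie above 0 in the left stretch (54 of 60, median 0.66) and in the right stretch (10 of 11, median 0.76). In the middle stretch most lie around 0 (median -0.09). The remaining points of the left and right stretches lie below 0.

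Within the interval, 6 equal bins of 110 kb, whose inner bounds did not come from the values, were also described. The median log2 fold change was 0.80, 0.68 and 0.61 in bins 1, 2 and 3, with 16 of 17, 17 of 18 and 19 of 22 tested members positive. It was -0.09 in bin 4, -0.04 in bin 5 and 0.30 in bin 6, with 5 of 19, 7 of 15 and 17 of 23 positive. The 131 tested genes in the 660 kb before the interval and the 115 in the 660 kb after it had medians of -0.00085 and -0.0013, with 65 and 57 positive. None of them passed as higher, and 4 before and 1 after passed as lower, beside 0.298% of all tested genes.

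The bounds of the stretches were placed after the values had been seen. A difference between the genes on either side of a bound follows from that choice, marks no edge by itself and was not tested. The first member, *F42G8.7* (current symbol *erp-44.3*), was measured at 6.64, 6.84 and 7.84 CPM in the *grh-1* OEx libraries, against 4.46, 4.05 and 4.78 CPM in the WT libraries. Its 3 *grh-1* OEx libraries lay above all WT libraries (log2 fold change 0.68 ± 0.19). The gene before it, *F42G8.8*, ends 1764 bases upstream and was measured at 0.337, 0.969 and 0.502 CPM in the *grh-1* OEx libraries, against 0.135, 0.875 and 4.69 CPM in the WT libraries. It was high in WT replicate 3 only, and its log2 fold change was -1.68 ± 0.90 with that library and 0.18 without it. At the other end of the left stretch *str-176*, of the serpentine receptor family, had a log2 fold change of 0.98 ± 0.14, and 951 bases further on *oat-1*, an organic anion transporter, had 0.12 ± 0.15. *oat-1* was measured at 10.8, 11.7 and 11.1 CPM in the *grh-1* OEx libraries, against 10.5, 10.3 and 10.2 CPM in the WT libraries, and its libraries were separated by a small margin. The right stretch began 926 bases after *C49C8.5* (-0.20 ± 0.14) with *C49C8.1* (3.48 ± 0.53). It ended at *F21D5.1* (0.46 ± 0.17, current symbol *pgm-3*), followed 77 bases later by *otub-3* (0.21 ± 0.16), a deubiquitinase of the otubain family. The groups overlapped in *otub-3* and did not in *F21D5.1*. The end stretch also held positive members with no overlap, *F20C5.6* (0.58 ± 0.17) and the last member, *C33D9.6* (0.45 ± 0.15). The 2 genes after *C33D9.6* outside the interval, *C33D9.13* and *C33D9.8*, had 0.09 ± 0.27 and -0.21 ± 0.35.

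The members of the left stretch that passed were of mixed function. *sph-1*, the synaptophysin gene, was measured at 32.5, 39.2 and 38.1 CPM in the *grh-1* OEx libraries, against 23.6, 20.3 and 19.2 CPM in the WT libraries. All *grh-1* OEx libraries were higher (log2 fold change 0.80 ± 0.14, adjusted p = 0.040). *islo-1*, whose protein interacts with the potassium channel SLO-1, was measured at 15.9, 14.7 and 13.3 CPM in the *grh-1* OEx libraries, against 7.699, 8.04 and 6.08 CPM in the WT libraries (log2 fold change 1.01 ± 0.17, adjusted p = 0.043). The groups did not overlap. *str-176* was measured at 31.6, 36.2 and 29.8 CPM in the *grh-1* OEx libraries, against 16.5, 18.04 and 14.9 CPM in the WT libraries (adjusted p = 0.015), again with no overlap. The left-out gene *isp-1* lies between *sph-1* and *islo-1*, and *pmk-3*, *pmk-2* and *pmk-1* follow *islo-1*. In that order these 4 genes had log2 fold changes of 0.82 ± 0.20, 1.05 ± 0.14, 0.68 ± 0.17 and 1.03 ± 0.14, of which *pmk-3* and *pmk-1* passed with adjusted p = 0.0092 and 0.012. All 10 tested genes that the rule left out lie in the left stretch, and 8 of them were positive. The others were the histone genes *his-31* (-0.64 ± 0.28) and *his-32* (-1.18 ± 0.18, adjusted p = 0.023). In both, all *grh-1* OEx libraries lay below all WT libraries. How reads that match more than one histone gene were counted was not given in the sources used here, and its part in these values was not tested.

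*faah-1*, a fatty acid amide hydrolase that breaks down N-acylethanolamines, was measured at 63.4, 61.1 and 69.1 CPM in the *grh-1* OEx libraries, against 32.3, 38.05 and 29.4 CPM in the WT libraries. The log2 fold change was 0.96 ± 0.14 (adjusted p = 0.015) with no overlap. Its paralog *faah-2*, which precedes it on the same strand, averaged 91.7 ± 21.4 CPM in *grh-1* OEx and 65.96 ± 9.69 CPM in WT (SD, n = 3 each), and the groups overlapped. *glrx-22*, of the glutaredoxin family, was measured at 65.2, 62.1 and 87.6 CPM in the *grh-1* OEx libraries, against 38.6, 39.5 and 32.7 CPM in the WT libraries (log2 fold change 0.96 ± 0.16, adjusted p = 0.037), with the highest value in *grh-1* OEx replicate 3. *T01B11.2*, annotated as an aminotransferase-like protein and now named *eppl-1*, was measured at 134, 126 and 140.1 CPM in the *grh-1* OEx libraries, against 80.9, 68.4 and 76.8 CPM in the WT libraries (log2 fold change 0.82 ± 0.13, adjusted p = 0.028). *faah-1*, *glrx-22* and *T01B11.2* each separated the groups.

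The remaining calls in the left stretch were genes known by sequence name. *T09A12.5* (now *serp-1.2*) was measured at 68.7, 78.5 and 83.5 CPM in the *grh-1* OEx libraries, against 39.6, 33.3 and 38.9 CPM in the WT libraries, a log2 fold change of 1.04 ± 0.13 (adjusted p = 0.0085). It overlaps *nhr-66* on the other strand by 421 bases, and the kit did not keep strand, so reads there cannot be told apart. The same limit holds for *faah-1*, *F35H10.10* and *sph-1*, which overlap *clec-51*, *vha-5* and *moc-3* by 291, 44 and 34 bases. *K07H8.9* was measured at 55.4, 49.3 and 45.7 CPM in the *grh-1* OEx libraries, against 22.4, 21.5 and 31.8 CPM in the WT libraries (adjusted p = 0.042). *F35H10.6* was measured at 54.1, 53.8 and 68.6 CPM in the *grh-1* OEx libraries, against 35.3, 34.3 and 28.3 CPM in the WT libraries (adjusted p = 0.045), and the next gene on the same strand, *F35H10.5*, at 32.4, 28.2 and 42.03 CPM in the *grh-1* OEx libraries, against 18.4, 19.02 and 15.1 CPM in the WT libraries, with adjusted p = 0.052. The groups did not overlap in *K07H8.9*, *F35H10.6* or *F35H10.5*. *F35H10.10* was measured at 97.05, 97.5 and 60.2 CPM in the *grh-1* OEx libraries, against 30.9, 36.7 and 40.8 CPM in the WT libraries, a log2 fold change of 1.23 ± 0.20 (adjusted p = 0.031), with *grh-1* OEx replicate 3 below the others of its group. *F17E9.4* was measured at 125, 126 and 98.7 CPM in the *grh-1* OEx libraries, against 71.4, 63.7 and 62.7 CPM in the WT libraries (adjusted p = 0.045), again with no overlap.

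**Figure D2:**
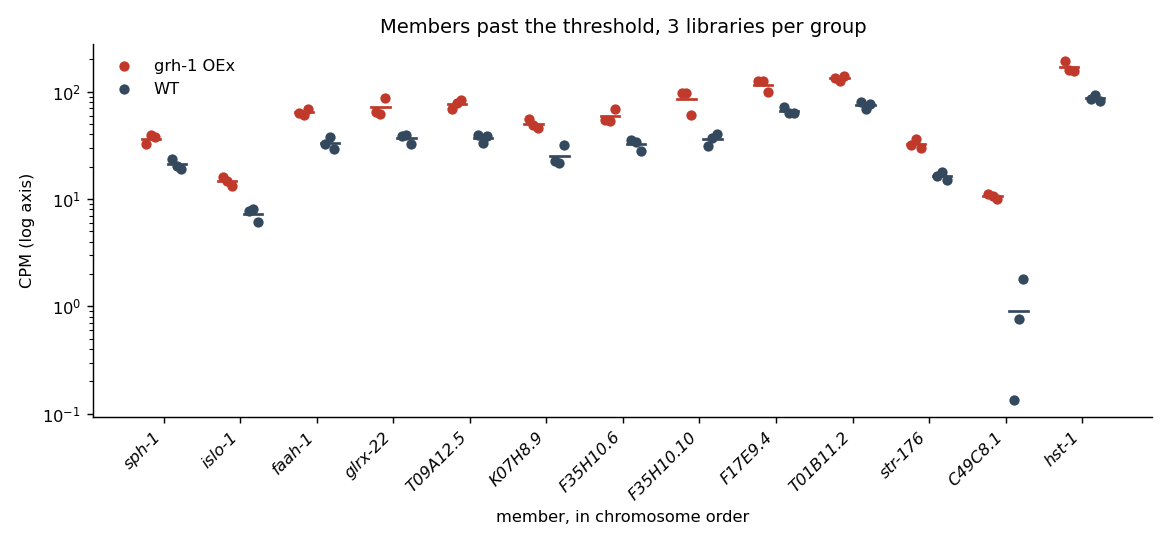
CPM on a log axis in the 3 *grh-1* OEx libraries (red, left) and the 3 WT libraries (dark blue, right) for the 13 members with adjusted p below 0.05, in chromosome order, with a bar at each mean. No group of 3 overlaps the other, and the widest gap is in *C49C8.1*, the gene with the lowest WT values.

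Among the members of the left stretch that did not pass, the following, picked after their values were seen, were also positive, several of them with smaller ratios than any member that passed. *F42G8.10* (now *ndub-11*) averaged 352 ± 46.6 CPM in *grh-1* OEx and 201 ± 16.5 CPM in WT (SD, n = 3 each), and its log2 fold change was 0.80 ± 0.16. *moc-3*, a molybdenum cofactor enzyme, had 0.82 ± 0.16, *daf-31*, the catalytic subunit of an N-terminal acetyltransferase, 0.60 ± 0.12, and *tbce-1*, a tubulin folding cofactor, 0.65 ± 0.13. *nprl-3*, of the GATOR1 complex that restrains TORC1, had 0.59 ± 0.16, *vha-5*, of the proton-pumping V-ATPase, 0.52 ± 0.15, *sqv-1*, which makes UDP-xylose, 0.57 ± 0.15 and *praf-3*, a prenylated Rab acceptor, 0.77 ± 0.15. In these 8 members no *grh-1* OEx library overlapped a WT library. *syx-4*, a syntaxin, was measured at 54.6, 45.9 and 52.00 CPM in the *grh-1* OEx libraries, against 40.1, 31.7 and 45.4 CPM in the WT libraries, with no overlap and a log2 fold change of 0.38 ± 0.15. At mean levels below 3 CPM in both groups, the TRPV channel gene *ocr-2* had 0.91 ± 0.41 and the growth factor-like gene *svh-1* 0.67 ± 0.31. In *ocr-2* the groups overlapped, with *grh-1* OEx replicate 3 (0.753 CPM) below every WT library.

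Positive ratios were found at all levels of expression in the left stretch. Of its 60 tested members, 15 averaged 100 CPM or more and all 15 were positive (median log2 fold change 0.56). All 21 between 10 and 100 CPM were positive (median 0.82), and of the 24 under 10 CPM, 18 were positive (median 0.68). In the middle stretch the same classes had medians of -0.05 (6 members), -0.07 (12 members) and -0.37 (11 members). The member with the highest level per length was *vit-6*, which encodes a yolk protein made in the intestine, at 7569 CPM per kb in *grh-1* OEx and 5395 CPM per kb in WT, followed by *nap-1*, a nucleosome assembly protein, at 644 CPM per kb in *grh-1* OEx and 574 CPM per kb in WT. *mesp-1*, needed for meiotic spindles, had 372 CPM per kb in *grh-1* OEx and 409 CPM per kb in WT, *cks-1*, a subunit of cyclin-dependent kinases, 329.9 CPM per kb in *grh-1* OEx and 331 CPM per kb in WT and *spp-10*, a saposin-like protein, 257 CPM per kb in *grh-1* OEx and 292 CPM per kb in WT. *mesp-1*, *cks-1* and *spp-10* lie in the middle stretch, with log2 fold changes of -0.14 ± 0.16, -0.01 ± 0.14 and -0.18 ± 0.17, and their groups overlapped. The median level of tested members was 25.4 CPM per kb in *grh-1* OEx and 21.6 CPM per kb in WT, beside 13.0 and 13.4 CPM per kb over all tested genes.

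*vit-6* was measured at 27171, 32359 and 22801 CPM in the *grh-1* OEx libraries, against 12991, 16268 and 29427 CPM in the WT libraries. WT replicate 3 lay among the *grh-1* OEx libraries, and the log2 fold change was 0.49 ± 0.28 with it and 0.90 without it, which then passed the test (adjusted p = 0.0094). The part of the high intestinal markers of WT replicate 3 in this value was not tested. *nap-1* was measured at 879, 899 and 807 CPM in the *grh-1* OEx libraries, against 798, 631 and 876 CPM in the WT libraries, with a log2 fold change of 0.17 ± 0.17 and overlapping groups. Together with *T26A8.4* (0.09 ± 0.15) and *K07H8.10* (0.33 ± 0.18, now *nucl-1*), *nap-1* was one of the members of the left stretch above 100 CPM with the smallest ratios. The tested members next to each of them had larger ratios, and *praf-3*, the gene after *nap-1*, had 0.77 ± 0.15.

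**Figure D3:**
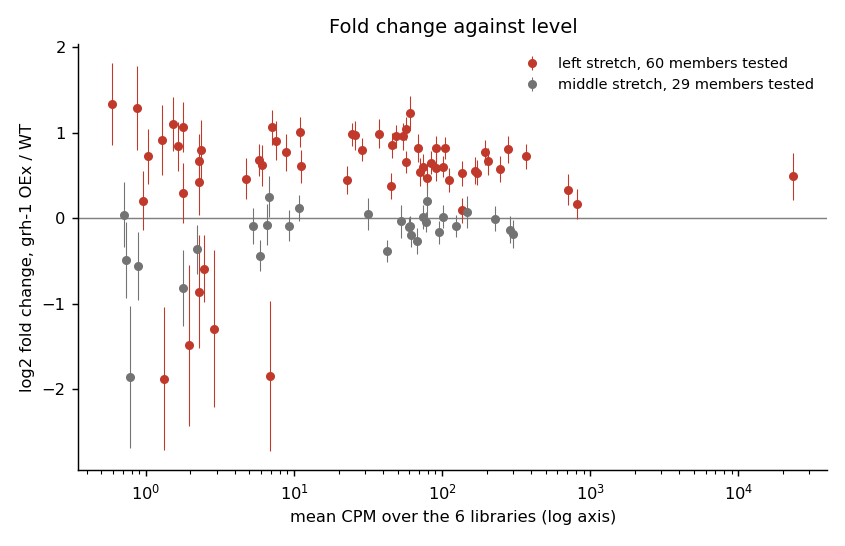
Log2 fold change of *grh-1* OEx over WT, with its standard error, against the mean CPM of the 6 libraries on a log axis, for the 60 tested members of the left stretch (red) and the 29 of the middle stretch (grey). Members of the left stretch above 10 CPM all lie above 0, and the points below -1 are all under 10 CPM.

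Members of both strands showed the pattern. In the left stretch 31 of 34 tested members on the plus strand and 23 of 26 on the minus strand were positive, with medians of 0.65 and 0.74, and 5 and 6 of them passed the test. Of the 89 adjacent pairs of genes there, 44 lay on the same strand, 22 diverged and 23 converged. Where both genes of a pair were tested members, the absolute difference in log2 fold change had a median of 0.35 over 23 same-strand pairs, 0.36 over 12 divergent pairs and 0.51 over 9 convergent pairs. The same pairs differed in level per length by medians of 1.28, 2.42 and 1.85 on the log2 scale. The largest differences in log2 fold change were 2.78, 1.43 and 1.67 in the same order. They were in pairs with *F17E9.3*, *D2096.5* and *ant-1.4*, each high in WT replicate 3 alone. Differences without that library are not given here, and the arrangements were not tested against each other. The 12 same-strand pairs with a gap of at most 500 bases differed in log2 fold change by a median of 0.30. Of all members, 26 overlap a gene on the other strand. *D2096.6* is one, sharing 879 bases with *aagr-1*, an alpha-glucosidase gene, and the values were 1.06 ± 0.20 for *D2096.6* and 0.66 ± 0.13 for *aagr-1*.

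By library, the median log2 ratio of the left stretch to the WT mean was 0.70, 0.67 and 0.60 in *grh-1* OEx replicates 1, 2 and 3, against -0.03, -0.04 and 0.05 in WT replicates 1, 2 and 3. In the middle stretch it was -0.11, -0.09 and -0.10 in *grh-1* OEx, against -0.02, -0.01 and -0.01 in WT, with all *grh-1* OEx libraries below all WT libraries. The WT libraries are part of the mean they are set against, which draws them towards 0. The stretches were bounded after their values were seen, so the order of the libraries carries no test. The right stretch had 1.07, 0.90 and 0.74 in *grh-1* OEx, against 0.0048, 0.10 and -0.01 in WT. In the end stretch the groups overlapped, at 0.07, 0.01 and 0.07 in *grh-1* OEx, against 0.05, 0.08 and -0.16 in WT. Over all tested genes no library departed from the WT mean by more than 0.05.

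**Figure D4:**
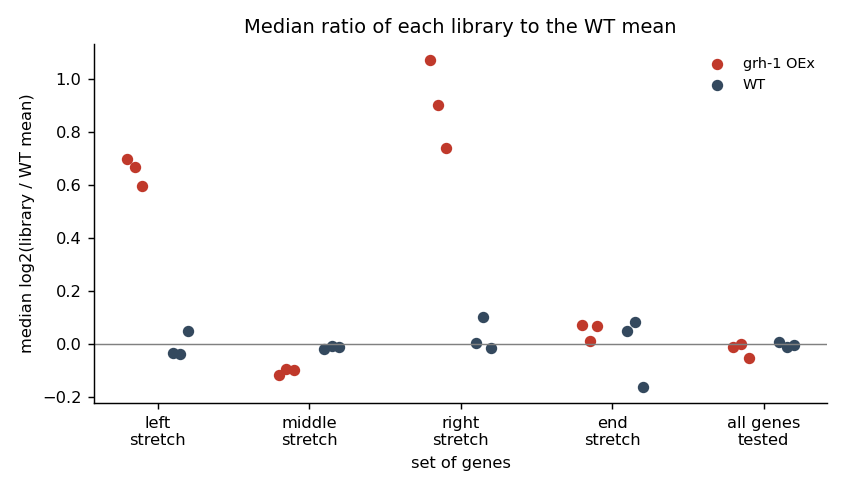
Median log2 ratio of each library to the mean of the WT libraries, for the tested members of each stretch and for all tested genes, with *grh-1* OEx (red) left of WT (dark blue). The *grh-1* OEx libraries lie above WT in the left stretch (0.60 to 0.70) and above it in the right stretch (0.74 to 1.07), lie below it in the middle stretch (-0.11 to -0.09) and overlap it in the end stretch.

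The tested members of the left stretch with negative log2 fold changes numbered 6, and 5 of them were highest in WT replicate 3. *F17E9.3* was measured at 0.5295, 0.561 and 0.627 CPM in the *grh-1* OEx libraries, against 0.743, 0.328 and 5.15 CPM in the WT libraries. *F17E9.5* was measured at 1.59, 4.897 and 2.57 CPM in the *grh-1* OEx libraries, against 1.22, 4.21 and 26.9 CPM in the WT libraries. *B0218.7* was measured at 0.5295, 1.89 and 0.6900 CPM in the *grh-1* OEx libraries, against 0.2701, 0.929 and 7.43 CPM in the WT libraries. In each, WT replicate 3 exceeded every other library by over 3 times, while WT replicates 1 and 2 lay within or near the *grh-1* OEx range. *ant-1.4*, an adenine nucleotide translocator, was measured at 0.963, 2.704 and 1.38 CPM in the *grh-1* OEx libraries, against 0.2701, 1.53 and 10.4 CPM in the WT libraries. Without WT replicate 3 the log2 fold changes of *F17E9.3*, *F17E9.5*, *B0218.7* and *ant-1.4* were 0.12, 0.12, 0.73 and 0.83, where they had been -1.88, -1.85, -1.49 and -1.29. *D2096.5* turned likewise (-0.86 with all libraries, 0.65 without). *lys-10*, a lysozyme gene, alone stayed negative, at -0.59 and -0.79. Without WT replicate 3, 61 of 62 tested members of the left stretch were positive, with a median of 0.72, beside 49.2% of all genes tested that way. In the middle stretch *F42A9.7*, annotated as a major sperm protein, was measured at 0.096, 0.561 and 0.376 CPM in the *grh-1* OEx libraries, against 0.2701, 0.601 and 2.79 CPM in the WT libraries, and it fell below the count filter without WT replicate 3. The part of the high sperm genes of WT replicate 3 in these values was not tested.

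**Figure D5:**
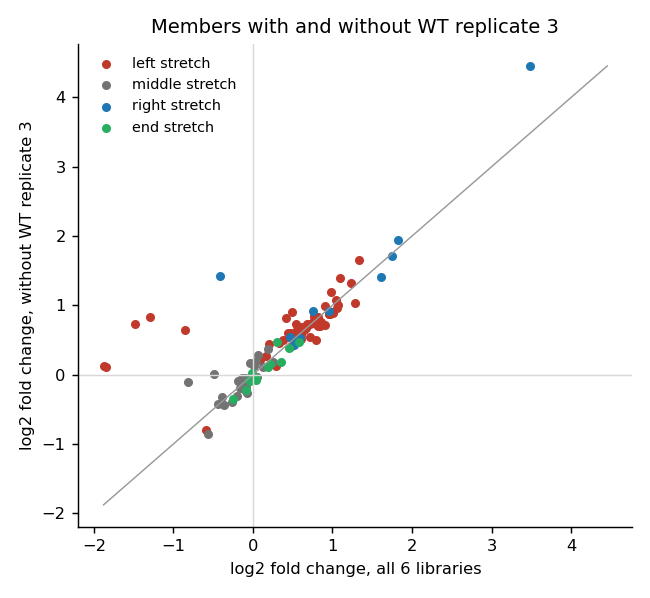
Log2 fold change of *grh-1* OEx over WT with all 6 libraries (x) against that without WT replicate 3 (y) for the 113 members tested both ways, coloured by stretch, with the line of equality. Most members lie near the line, and the 6 that lie farthest above it are 5 members of the left stretch and *F08B4.8* of the right stretch.

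The right stretch held the largest ratio of the block. *C49C8.1* was measured at 11.3, 10.7 and 9.97 CPM in the *grh-1* OEx libraries, against 0.135, 0.765 and 1.81 CPM in the WT libraries. The 3 *grh-1* OEx libraries were close together and the WT libraries were spread over low values, and the log2 fold change was 3.48 ± 0.53 (adjusted p = 0.023). It was 4.45 without WT replicate 3 and 3.08 without WT replicate 1. The adjusted p was between 0.11 and 0.28 without WT replicate 2 or without any 1 of the *grh-1* OEx libraries. *cdh-5*, a cadherin, was measured at 18.5, 18.3 and 7.46 CPM in the *grh-1* OEx libraries, against 3.65, 5.25 and 4.32 CPM in the WT libraries (log2 fold change 1.74 ± 0.33, adjusted p = 0.067). *F21D5.9* was measured at 2.07, 1.89 and 1.76 CPM in the *grh-1* OEx libraries, against 0.675, 0.328 and 0.603 CPM in the WT libraries (log2 fold change 1.83 ± 0.35, adjusted p = 0.069). In both the groups were separated, at low WT levels. *parg-2*, a poly(ADP-ribose) glycohydrolase, was measured at 7.32, 7.397 and 4.01 CPM in the *grh-1* OEx libraries, against 2.43, 2.296 and 1.44 CPM in the WT libraries (log2 fold change 1.61 ± 0.31, adjusted p = 0.071), whereas its paralog *parg-1* in the end stretch averaged 102 ± 11.8 CPM in *grh-1* OEx and 106 ± 4.96 CPM in WT (SD, n = 3 each), and its log2 fold change was -0.05 ± 0.13. The difference between the paralogs was not tested.

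*hst-1*, the heparan sulfate N-deacetylase and N-sulfotransferase, was measured at 194, 158 and 154 CPM in the *grh-1* OEx libraries, against 85.9, 92.9 and 82.7 CPM in the WT libraries. All *grh-1* OEx libraries lay above WT (log2 fold change 0.95 ± 0.14, adjusted p = 0.022). Around it the ratios were smaller. *dic-1*, now *ints-6*, which diverges from *hst-1*, was measured at 106, 95.4 and 105 CPM in the *grh-1* OEx libraries, against 65.03, 76.4 and 62.7 CPM in the WT libraries (log2 fold change 0.59 ± 0.13, adjusted p = 0.15), and *pole-2*, a subunit of DNA polymerase epsilon, and *F08B4.7* had 0.56 ± 0.14 and 0.52 ± 0.15. *F08B4.8* had -0.41 ± 0.84 with all libraries and 1.42 without WT replicate 3.

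In the middle stretch no member passed the test. At an unadjusted p of 0.05, 3 of its 29 tested members were lower and 0 higher, beside 4.44% and 2.18% of all tested genes. Of these 3, *F42A9.7* was high in WT replicate 3 alone. *spp-8*, a saposin-like protein gene, was measured at 40.9, 36.1 and 33.5 CPM in the *grh-1* OEx libraries, against 47.7, 44.4 and 52.5 CPM in the WT libraries, with all *grh-1* OEx libraries below WT (log2 fold change -0.39 ± 0.13, adjusted p = 0.52). *Y59H11AR.4* was also lower in each *grh-1* OEx library, at 5.25, 5.15 and 4.64 CPM in the *grh-1* OEx libraries, against 6.48, 6.998 and 6.92 CPM in the WT libraries (log2 fold change -0.44 ± 0.18, adjusted p = 0.70). *mes-6*, of the complex that methylates lysine of a core histone in the germline, averaged 119.9 ± 10.5 CPM in *grh-1* OEx and 127 ± 1.55 CPM in WT (SD, n = 3 each), and its log2 fold change was -0.09 ± 0.13. The ceramide synthase gene *hyl-1* had -0.17 ± 0.13, the cytochrome P450 genes *cyp-33E1* and *cyp-33E2* had -0.08 ± 0.24 and -0.09 ± 0.18, and *dgk-4*, a diacylglycerol kinase, had 0.07 ± 0.19.

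Of the 36 members that were not tested, 6 had no read in any library, where the limit that a count of 0 allows (3 counts) is 0.117 to 0.208 CPM per library. *sdz-25* and *M116.1* are a pair on opposite strands with the same deposited width of 990 bases, and *mpst-6* and *mpst-5* another with 903 bases each. The current annotation gives both genes of each pair a single symbol. How reads that match more than one copy were counted was not given in the sources used here, so a value of 0 at these genes is uncertain. *Y59H11AR.3* and *F20C5.7* were the other members at 0. In the other untested members no library exceeded 19 counts in *grh-1* OEx, and in WT the most was 263 counts, in WT replicate 3.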

How the data were processed

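RNA from 3 *grh-1* OEx and 3 WT samples was prepared with an unstranded poly(A) kit. Per the paper's methods and the submitters' processing notes, the authors trimmed the reads, aligned them to WBcel235 with STAR and counted them with featureCounts. The deposited raw counts per gene were used as deposited. The deposited table also gave gene starts, ends, strands and widths in bases and the GC content as a fraction, of which the GC fraction entered no reported result. Its 12 other columns of per-sample values (normalized counts and FPKM) and its columns of fold changes and p-values were not used.

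Counts were fitted with the quasi-likelihood test of edgeR 4.0.16 (R 4.3.3, limma 3.58.1) on group alone, with TMM factors, after filterByExpr with a minimum count of 10, which left 13736 genes. The Benjamini-Hochberg adjustment took in all of them. Standard errors are the log2 fold change divided by the root of F. CPM used TMM-scaled library sizes, and level per length divided it by the deposited width. Positions are the deposited ones. Gene symbols called current came from an Ensembl name table, in which all 150 members matched. Predicted sites were taken as sequences and positions from the study's own list.

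The members, bins and lists were chosen with earlier results of these data known. The named genes are all members past the threshold, the 5 largest and 5 smallest log2 fold changes, the 5 highest levels per length in WT, up to 4 members a bin with the smallest p, the genes at each end of the interval, the *pmk* genes and *isp-1*. Other members, and the 4 stretches, were picked after their values were seen. The fit was repeated with DESeq2 1.42.0, with RLE factors, with upper-quartile factors, unfiltered, on genes holding 10 or more counts in each of the libraries, with a block for the replicate number, and leaving out 1 library at a time. Library depth limits low genes, and intervals from counts cover counting error only.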

Additional observations from a re-analysis of the deposited data

How the results depend on the processing

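With 1 library left out at a time, the median log2 fold change of the tested members ran from 0.36 to 0.53. It ran from 0.69 to 0.83 in bin 1, 0.55 to 0.70 in bin 3, -0.13 to -0.040 in bin 4, -0.21 to 0.093 in bin 5 and 0.18 to 0.48 in bin 6, and from -0.031 to 0.085 in the 660 kb before the interval. The ranges were 0.63 to 0.72 in the left stretch, -0.13 to -0.031 in the middle, 0.61 to 1.16 in the right and -0.010 to 0.15 in the end stretch. With DESeq2 the median of all members was 0.37 and that of bin 1 0.71, and with no filter they were 0.39 and 0.73, with 0.87 in the right stretch, where more low genes entered. The count of members called higher ran from 0 to 23 with 1 library left out and was 33 with DESeq2, and the count called lower ran from 0 to 2 and was 1 with DESeq2. Dividing by annotated span in place of width gave a median WT level of 10.9 CPM per kb, in place of 21.6, and a gap of up to 1000 bases gave a difference of 0.37 between close same-strand neighbours, in place of 0.30.

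Same-numbered libraries of the 2 groups did not deviate together, with correlations across genes of 0.23, -0.01 and -0.12 for numbers 1, 2 and 3, and not every library correlated best with its own number. With the replicate block 3 members were called higher, in place of 13, and the share of all tested genes in that fit is not given here.

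Over 45 named genes and 12 alternatives, 528 values could be computed, the rest being genes under the filter or with no adjusted p, of which 413 kept their direction and side of the threshold, 67 lost a call, 34 gained one and 14 changed sign. Log2 fold changes that changed sign with a library left out ran from -2.31 to 0.12 in *F17E9.3*, -2.38 to 0.12 in *F17E9.5*, -2.25 to 0.73 in *B0218.7*, -1.81 to 0.83 in *ant-1.4*, -0.053 to 0.12 in *cks-1*, -2.20 to 0.18 in *F42G8.8*, -0.11 to 0.35 in *C33D9.13* and -0.31 to 0.040 in *C33D9.8*. *cks-1* was also 0.024 with DESeq2, 0.019 with RLE factors and 0.042 with no filter, where it was -0.0068 in the edgeR fit. The cause of these changes was not tested. Genes under about 1 CPM rest on few reads, and a transgenic line that is a single line limits what the comparison can separate.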
